A study of Mus musculus with 10 samples.

Results

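Most of the genes described here encode the moving and load-bearing parts of the cytoskeleton: kinesins, dyneins, dynactin subunits, myosins, tubulins, tubulin folding cofactors, the gamma-tubulin ring, the Arp2/3 complex and actin capping protein. Actin-related proteins of the nucleus share the symbol Actr and are included. The rule takes every gene of the deposited rate table by its symbol, where this starts as those of the families do (Kif, Klc, Dync, Dynl, Dctn, Myo, Tuba, Tubb, Tubg, Tube, Tbca to Tbce, Actr, Arpc, Capz). The rule found 57 of the 8590 genes in the table. The annotation (GENCODE M21 on GRCm38) holds 143 coding genes whose symbols meet the rule, and those outside the table were not analysed here.

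The study compared wild-type mouse cortical neurons with neurons that lack Fmr1, the gene for the RNA-binding protein FMRP. Both genotypes carry the strain label FVB.129P2-Pde6b+ Tyrc-ch/AntJ, and nothing else in the labels separates them apart from the genotype (wild type or Fmr1-KO). Cortices came from embryonic day 18, and the cells were cultured for 14 days in a serum-free neuronal medium. New RNA was marked for 20 or 60 min with 5-EU at 200 µM (5-ethynyluridine, which cells build into new transcripts and which click chemistry can pull out of total RNA), with 1 labelled library for each genotype and time. The rates of synthesis, processing (splicing of premature into mature RNA) and degradation were estimated by the authors for each of these 4 libraries. The labels do not say which animals or cultures the libraries came from. The p-values below therefore measure the spread between the 2 labelling times of a genotype, which stand as its 2 replicates. For processing and degradation, the 2 listed rates of a genotype also share 1 RNA level per gene, as described below. The error of that level is in no SE or p-value given here.

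Neurons depend on these genes for transport and shape. Kinesins walk along microtubules mostly towards the axon tip, cytoplasmic dynein with its cofactor dynactin carries cargo back to the cell body, and myosins move along actin in spines and growth cones. FMRP-containing granules are themselves carried along microtubules, and several cytoskeletal messages are known FMRP targets. The steady level of a message is set by how fast it is made against how fast it is degraded, and the rate table gives both terms for each gene.

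Coverage differed between the families. All 7 genes of the gamma-tubulin ring (which nucleates microtubules), all 5 tubulin cofactors (which fold tubulin and join it into dimers) and all 3 nuclear actin-related genes (Actr5, Actr6 and Actr8, subunits of chromatin remodellers) were in the table. So were 13 of 47 kinesin genes, 7 of 16 dynein genes, 6 of 9 dynactin genes, 8 of 25 myosins, 5 of 10 Arp2/3 genes, 2 of 4 capping protein genes and 1 of 17 tubulins. Of 37 members of special interest listed by role (major neuronal tubulins, Kif1a, the Kif5 motors, Dync1h1, Dctn1, Myo5a and others), 11 were in the table: Tuba1c, Tubg1, Kif2a, Kif5b, Klc2, Dync1i1, Dync1li1, Myo6, Myo10, Actr3 and Arpc5. The other 26 were not analysed here.

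The promoters of 3 members are shown because they stand at the ends of the range of synthesis rates: Arpc5 and Dync1li1 were made fastest of all members in wild type, and Dync2h1 was among the slowest. Each line gives the 250 bases before the RefSeq start (GRCm38.p6), 5′ to 3′ on the gene's strand. Capitals mark matches on either strand to 5 motifs: the TATA box (TATAAA), the CCAAT box (CCAAT), the GC box (GGGCGG), the NRF1 motif (GCGC, AT and GCGC without a gap) and the ETS motif (CCGGAAGT).
Arpc5, chr1:152766292-152766541, plus strand: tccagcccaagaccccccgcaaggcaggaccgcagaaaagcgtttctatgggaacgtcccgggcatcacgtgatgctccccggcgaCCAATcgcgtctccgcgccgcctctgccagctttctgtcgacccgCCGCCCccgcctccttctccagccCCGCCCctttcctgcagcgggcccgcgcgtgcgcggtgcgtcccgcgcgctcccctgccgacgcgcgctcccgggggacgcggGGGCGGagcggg
Dync1li1, chr9:114688581-114688830, plus strand: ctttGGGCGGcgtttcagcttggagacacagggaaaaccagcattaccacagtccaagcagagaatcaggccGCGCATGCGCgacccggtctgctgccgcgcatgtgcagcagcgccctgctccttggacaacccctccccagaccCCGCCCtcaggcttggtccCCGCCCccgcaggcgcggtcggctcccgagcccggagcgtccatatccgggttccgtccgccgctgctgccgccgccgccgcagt
Dync2h1, chr9:7177059-7177308, minus strand: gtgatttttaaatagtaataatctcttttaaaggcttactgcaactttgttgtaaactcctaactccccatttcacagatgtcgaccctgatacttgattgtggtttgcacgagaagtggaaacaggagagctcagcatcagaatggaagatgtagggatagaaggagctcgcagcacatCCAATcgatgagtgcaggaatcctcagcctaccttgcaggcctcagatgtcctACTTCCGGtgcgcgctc

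The window of Arpc5 holds 37 CpG and that of Dync1li1 27, against 7 in Dync2h1. The start used for Dync2h1 lies 12 bases from that of the nearest annotated coding transcript, but another of its 5 coding transcripts starts 7388 bases further upstream, at a site not shown here. The Arpc5 and Dync1li1 windows hold 3 GC boxes each, and that of Dync2h1 none. Over the 46 windows that matched 40 members, the median was 17.5 CpG, beside 17 over the 8673 windows of genes in the rate table. A GC box was present in 58.7% of the members' windows and in 60.5% of those of table genes, and a CCAAT box in 32.6% and 34.8%. The ETS motif was in 8 of the 46 members' windows (17.4%), beside 6.27% of the table genes' windows, and the TATA box in 1 (2.17%), beside 5.59%. Some genes have more than 1 window, and these matches are descriptions of letters only.

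In wild-type neurons the members' median rates of synthesis, degradation and processing lay below those of all genes, while single members spanned much of the range of the table, and this difference was not tested. The rates are given in the units of the table, whose time unit is not given in the sources used here. The median of a gene's geometric mean over the 2 libraries was 0.800 for synthesis over 54 members, beside 1.03 over all 7914 genes with both values. For degradation the medians were 0.0741 for members and 0.110 for all genes, and for processing 6.06 over 49 members and 7.26 over 7055 genes. Whether the values are scaled to gene length is likewise not given, so orders between genes hold for the listed values.

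Arp2/3 nucleates branched actin networks, and its small subunit Arpc5 had the highest synthesis rate of all members, 5.13 at 20 min and 5.97 at 60 min (percentile 97.6 of all genes). Dync1li1, a light intermediate chain that links dynein to its cargo adaptors, followed with 7.82 and 3.63. Its 2 values span that of Arpc5, so the order of the 2 genes does not hold beyond the spread between labelling times. At the other end, Dync2h1, the motor chain of the dynein of cilia, was made at 0.187 and 0.154.

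Other subunits of the same complexes lay well apart. The cytoplasmic dynein subunits Dync1i1 (3.54 and 1.68), Dync1i2 (2.99 and 1.02) and Dync1li2 (2.53 and 1.24) had higher rates than the ciliary Dync2li1 (0.709 and 0.322) and Dync2h1 in each library. Among the Arp2/3 genes, Actr3b was lowest in both libraries and Arpc5 highest. The capping protein pair also lay apart: Capza2 was made at 2.89 and 2.96 and Capza1 at 0.290 and 0.288. Capping protein binds the growing ends of actin filaments, and its 2 listed alpha subunits therefore differed by far more than their libraries did.

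Processing was fastest for Tuba1c, an alpha-tubulin, at 59.6 and 48.5 (percentile 99.4). Next by the geometric mean of both libraries was Dync1li1 at 38.1 and 17.7, although Kif3b was above it at 60 min, at 21.6. By the same mean, processing was slowest for Capza1 at 1.65 and 1.64 and for Kif26a, an atypical kinesin without motor activity, at 1.05 and 2.64. That order at the low end does not hold beyond the spread between labelling times: Tubgcp4 (2.23 and 1.28) and Myo9b (2.97 and 1.06) were slower than both at 60 min. Tuba1c is nearly identical in coding sequence to other alpha-tubulins, so how its reads were assigned is uncertain.

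Degradation was fastest for Tbcc, the tubulin cofactor that helps release the finished dimer, at 0.354 and 0.341, and for Tubgcp5, a subunit of the gamma-tubulin ring, at 0.309 and 0.208. In the same range was the cofactor Tbce, whose 0.484 at 20 min and 0.131 at 60 min lie on both sides of these values. By the geometric mean, the slowest were Kifc2, a minus-end kinesin of neurons, at 0.0457 and 0.00817, and Klc2, a light chain of kinesin-1, at 0.0382 and 0.0118. At 20 min alone, Actr10, Myo1c, Tuba1c and Actr1b also lay below Kifc2. Tuba1c was also slow, at 0.0412 and 0.0335 (percentile 4.7).

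The start of the tubulin message matters in the cell: when free tubulin is in excess, alpha- and beta-tubulin messages are known to be degraded through the first residues of the protein as it leaves the ribosome. The first 12 coding bases of the tubulins in the table, from the annotated transcripts, are shown for that reason, with gamma-tubulins beside the only alpha-tubulin.
Tuba1c: atgcgtgagtgc
Tubg1: atgccgagagaa
Tubg2: atgccccgggag

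The RNA level of a gene follows from its rates. Synthesis over processing gives premature RNA, synthesis over degradation gives mature RNA (or total RNA where a library lists no processing rate), and the total level used below is the sum of both. In wild type this total was the same at both labelling times, to within 0.001 on the log2 scale, for all 54 members and for all 7914 genes with values, so the 2 libraries share 1 level per gene. By that level Tuba1c was the most abundant member at 68.2, followed by Arpc5 and Kifc2, both at 57.4, and Actr1b, a subunit of the dynactin filament, at 53.9. Capza1 was lowest at 1.47. The median level was 11.9 over the 54 members, beside 8.60 over 7993 genes with a level, and this difference was not tested. Kifc2 and Arpc5 thus shared nearly the same level at quite different rates: Arpc5 was made at 5.13 and 5.97 and Kifc2 at 2.61 and 0.466.

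**Figure D1:**
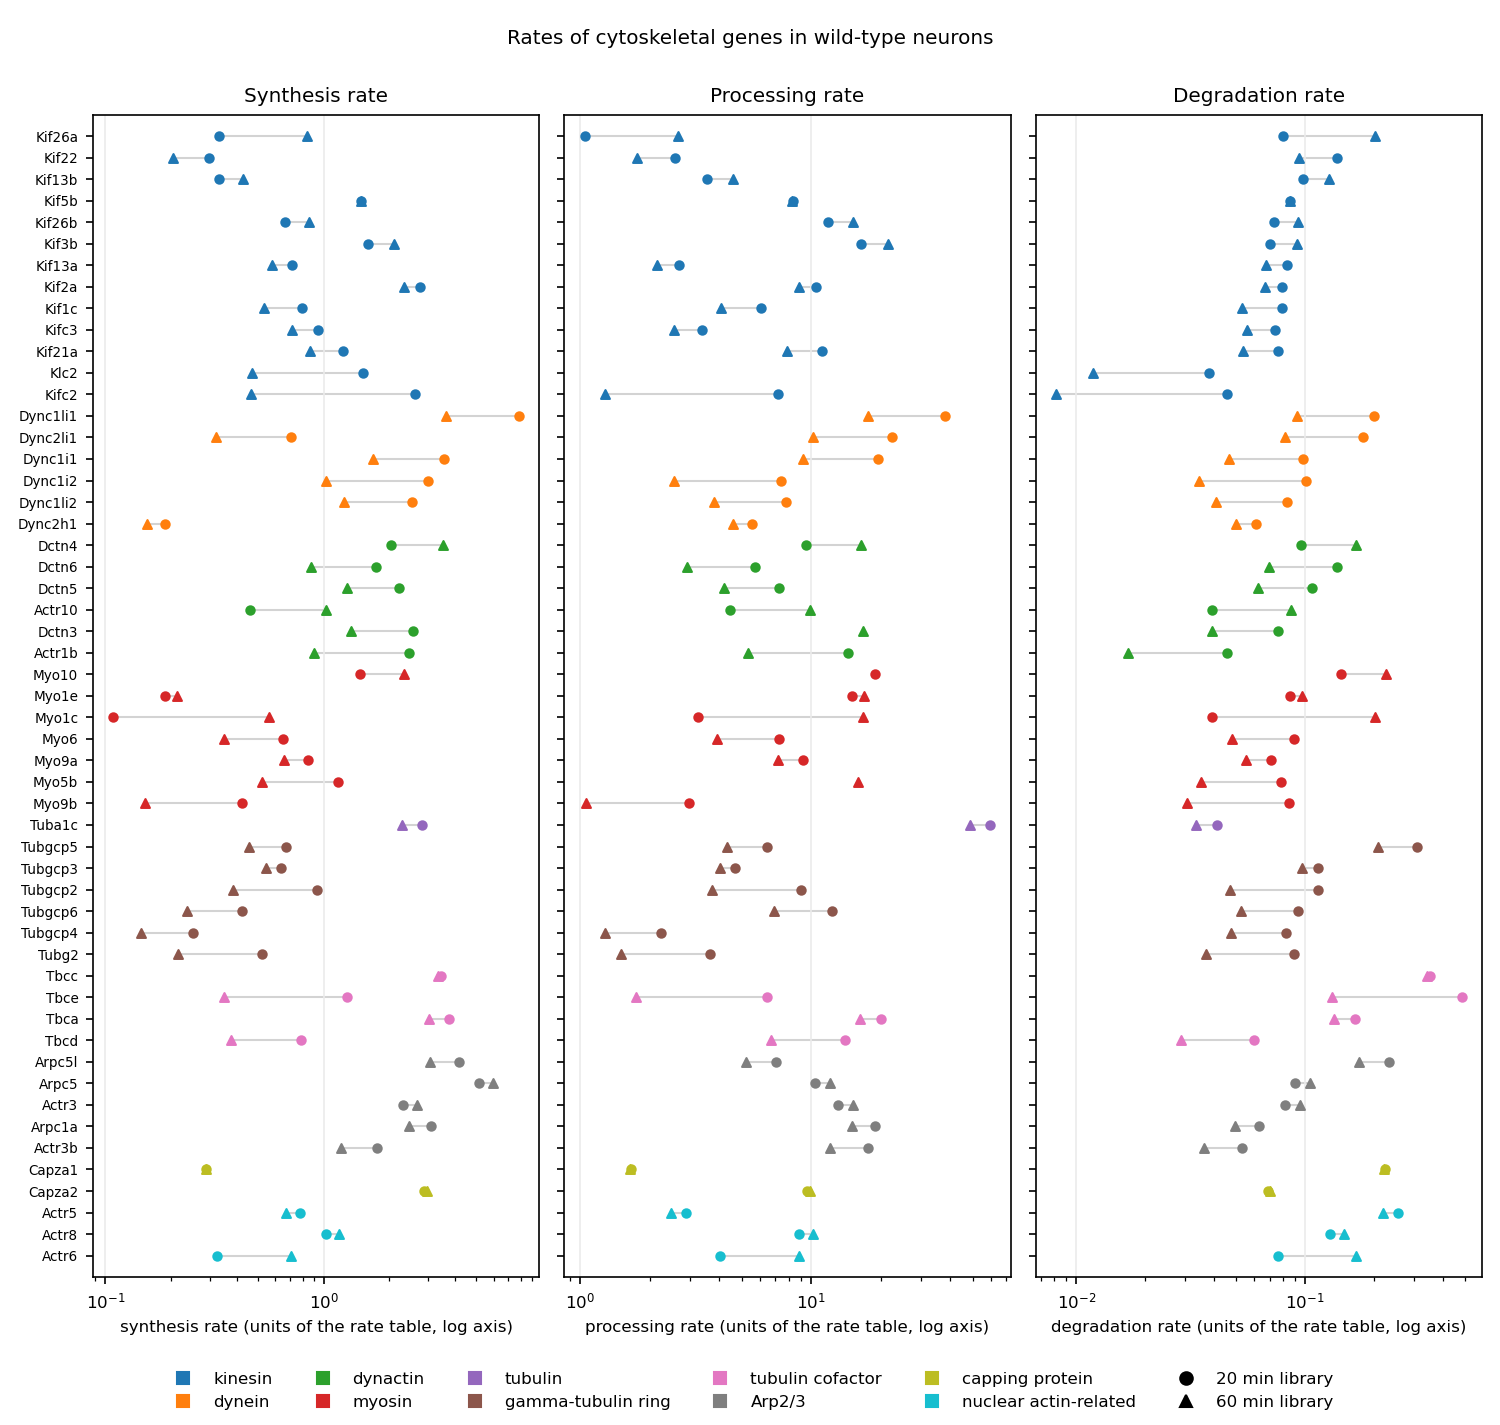
Synthesis, processing and degradation rates of 53 of the 54 members in wild-type neurons, on log axes in the units of the rate table, with 1 row per gene and colours for the families. Circles are the 20 min and triangles the 60 min library, joined by a line. By the geometric mean of both, Kifc2 and Klc2 stand lowest for degradation. Tbcc at 0.354 and 0.341 shows the fastest degradation by that mean, with close values.

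Gene structure went with synthesis among the members. Members ranged from Tbcc, with 1 exon, to Dync2h1, with 90, and had a median of 15 exons beside 9 over 8304 matched genes of the table. Across 54 members, the wild-type synthesis rate had a Spearman rho of -0.555 with exon number and -0.542 with coding length, beside -0.348 and -0.171 across 7669 genes. Members with more exons and longer coding sequences had lower synthesis rates. These are descriptions across genes that share the same libraries, and genes are not independent replicates.

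The targeted gene, Fmr1, still had rates in the knockout libraries, with a total RNA level, solved as described below, of 10.5 in wild type against 3.50 from both libraries without Fmr1, which is 2.99-fold lower. Its synthesis rate was not lower, 0.810 and 0.692 in wild type against 2.06 and 1.56 without Fmr1. Its listed degradation rate, 0.0774 and 0.0672 against 2.58 and 2.66, carries the level term described below. Of the markers of the neuron, 4 of 11 were in the table (Rbfox3, Gad2, Nefl and Nefm), and Rbfox3 had a level of 34.4 in wild type; Nefl had no rate, and Tubb3, Map2 and Snap25 were not analysed here. Glial messages were present as well, with wild-type levels of 39.5 for Aldh1l1 (astrocytes) and 48.2 for Olig2 (oligodendrocyte lineage). The table held 4 of 9 astrocyte, 5 of 8 oligodendrocyte lineage, 4 of 8 dividing-cell, 0 of 8 microglial and 0 of 6 endothelial and mural markers. Only 1 neuronal, 1 astrocyte, 1 oligodendrocyte lineage and 2 dividing-cell markers had rates in all 4 libraries and were tested (Rbfox3, Aldh1l1, Olig2, Aurkb and Cenpf). None of those tested was called in the fit without the block described below. With the block, the degradation rates of Rbfox3 (limma adjusted p = 0.024) and Aurkb (0.032) were higher in the knockout, beside 38.2% of all genes. The processing rate of Aurkb was higher as well (limma adjusted p = 0.019), beside 6.26% of all genes. Rates were not read counts, so the depth behind each value is unknown and no counting interval can be given.

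Many members had no rate in the knockout. Degradation rates were listed for 54 members at both times in wild type, and 12 of these (22.2%) lacked one in the knockout at either time, beside 1546 of 7914 genes (19.5%). The 5 of them with the highest wild-type synthesis were Tbca (a cofactor that holds beta-tubulin), Arpc1a (an Arp2/3 subunit), Dctn4 and Dctn5 (subunits of the pointed end of dynactin) and Tuba1c. The others were Dync2li1, Myo1e, Myo9a, Tbce, Tubgcp3, Tubgcp4 and Tubgcp6. The gamma-tubulin ring thus kept 2 of its 7 genes for the comparison, Tubg2 and Tubgcp2, and the only alpha-tubulin could not be compared. Dynlt3, a dynein light chain, and Tubg1 had no rate in any library, and Tbcb had rates in the knockout only.

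A further 7 members had a knockout degradation rate at 20 min but not at 60 min, and 0 the other way round; over all genes the numbers were 423 and 229. These 7 were Arpc5l, Capza1, Dync1i2, Dync2h1, Kif2a, Klc2 and Tubgcp5. In Kif2a, a kinesin that takes microtubules apart, the listed degradation rate was 0.0793 and 0.0669 in wild type and 0.0089 in the 1 knockout library. In all 7 the RNA level solved from the knockout rates (described below) was above that of wild type, as in Kif2a with 35.0 in wild type against 37.6 without Fmr1, but so it was in 410 of the 423 genes of the table with a rate at 20 min only. By the relation described below a level that rises by more than the synthesis rate would give a degradation rate under 0, so a missing rate goes with a higher level and this count is no separate observation. In 6 of the 7 the knockout rate listed at 20 min lay below the wild-type rate at that time. Comparisons of genotypes below rest on the members with rates in all 4 libraries: 36 for synthesis, 31 for processing and 35 for degradation.

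The listed degradation rates of the knockout differed from wild type in both directions. By limma's moderated test with Benjamini-Hochberg adjustment over all 5716 genes, 5 of 35 members rose and 2 fell. Over all genes 20.5% rose and 2.57% fell. Kif26b, Tbcd, Kif1c, Kif13a and Dctn3 rose, and Capza2 and Actr8 fell. Both rates of a genotype share 1 RNA level, so none of these calls is replicated for the level. This fit has no block for labelling time, and members below pass or miss the threshold in it unless the block is named. The median change of the 35 members was 0.95 on the log2 scale, beside 0.65 for all genes, and 27 of 35 were above 0, beside 68.1% of all genes. These 35 are the members with rates in all 4 libraries, and the 7 without a rate at 60 min mostly had lower listed rates in the knockout, so the filter itself bears on the median and the count: the solved level was below wild type in 71.4% of the 35 and in 59.5% of the 42 members with a level. Nothing is read from either number. The shift between the libraries' medians was itself 0.86, and with each library centred on its median 0 members rose and 1 (Capza2) fell, while over all genes the split turned from 1174 rises and 147 falls to 32 and 60. Quantile normalization gave 2 rises and 2 falls among members, with 360 and 236 over all genes.

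Among the kinesins, Kif26b is an atypical family member (ENSMUSG00000026494, GRCm38 chr1:178529125-178939200). Wild-type degradation rates were 0.0729 (20 min) and 0.0935 (60 min), and those of the knockout 0.810 and 0.842. The knockout values lay far above both wild-type values, and the rise was 10.0-fold, or 3.32 on the log2 scale (SE 0.334, limma adjusted p = 0.023). Kif1c, a motor of vesicles and of messenger RNA transport (ENSMUSG00000020821, chr11:70700548-70731964), had 0.0791 and 0.0529 in wild type against 0.379 and 0.340 without Fmr1. Its groups did not overlap, with a rise of 2.47 (SE 0.372, limma adjusted p = 0.025). Kif13a, which carries endosomes and recycling cargo (ENSMUSG00000021375, chr13:46749087-46929867), had 0.0834 and 0.0675 against 0.408 and 0.370. It rose by 2.37 (SE 0.331, limma adjusted p = 0.023).

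Not all kinesins did so. Kif5b, a heavy chain of kinesin-1 and the main carrier of organelles and RNA granules, had 0.0863 and 0.0859 in wild type against 0.112 and 0.102 without Fmr1. Its change was 0.31 (SE 0.314, limma adjusted p = 0.484), a small difference although the groups did not overlap. The minus-end kinesin Kifc2 had the largest listed change of the kinesins, 3.52, from 0.0457 and 0.00817 to 0.245 and 0.200. Its wild-type values were far apart, and with an SE of 0.903 it missed the threshold (limma adjusted p = 0.057, and 0.019 with labelling time as a block). Over the solved level described below, its change was -0.16 (SE 1.29). Its relative Kifc3 had lower values in the knockout, 0.0737 and 0.0559 against 0.0293 and 0.0228 (-1.31, limma adjusted p = 0.065). Kif13b, Kif21a, Kif22, Kif26a and Kif3b did not pass the test, with changes from -0.21 to 1.61.

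In dynein and dynactin, only Dctn3 passed without the block. Dctn3 is a small subunit of the dynactin shoulder (ENSMUSG00000028447, chr4:41714798-41723170), and it overlaps Il11ra1 on the opposite strand, whose reads cannot be told apart without strand. Its rate was 0.0761 and 0.0394 in wild type against 0.236 and 0.217 without Fmr1, a rise of 2.05 (SE 0.450, limma adjusted p = 0.043). The other 3 dynactin genes tested (Actr1b, Actr10 and Dctn6) had changes from 1.11 to 1.84 with knockout values above both wild-type values. They did not pass without the block but did with it (limma adjusted p = 0.021, 0.047 and 0.036), where 38.2% of all genes rose. Of the dynein chains, Dync1li2 was higher in the knockout, with 0.0834 and 0.0409 against 0.208 and 0.150. Its change was 1.60 (limma adjusted p = 0.081, and 0.022 with the block). Dync1i1, the neuronal intermediate chain, had 0.0979 and 0.0465 against 0.133 and 0.105, a change of 0.81 (limma adjusted p = 0.275). Dync1li1 went the other way, 0.200 and 0.0926 against 0.112 and 0.0424, with overlapping groups (-0.98, limma adjusted p = 0.329).

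The myosins held the largest listed change of all members tested, and it did not pass the test. Myo10, which extends filopodia, had degradation rates of 0.144 and 0.227 in wild type against 0.0045 and 0.0335 without Fmr1. The knockout values lay far below wild type but were far apart from each other. The change of -3.87 had an SE of 1.05 (limma adjusted p = 0.064, and 0.017 with the block). Over the solved level described below, the change of Myo10 was -0.28 (SE 0.440). Myo6, which moves towards the minus end of actin and draws receptors into the cell, had overlapping values of 0.0891 and 0.0479 against 0.0999 and 0.0414. Its change was -0.02 (SE 0.612). Of the 6 myosins tested, none passed, and the median change was 0.64.

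Tubulin cofactors and the gamma-tubulin ring had few members left. Tbcd, which holds beta-tubulin during dimer assembly (ENSMUSG00000039230, chr11:121451949-121617164), overlaps B3gntl1 and Zfp750 on the opposite strand. It had rates of 0.0599 and 0.0286 in wild type against 0.303 and 0.270 without Fmr1, a rise of 2.79 (SE 0.480, limma adjusted p = 0.029). Tbcc, the member with the fastest degradation in wild type, had 0.645 and 0.523 in the knockout (0.74, limma adjusted p = 0.160). Tubg2, a gamma-tubulin enriched in brain, went from 0.0895 and 0.0368 to 0.268 and 0.250 (2.17, limma adjusted p = 0.053), and Tubgcp2 had overlapping groups.

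On the actin side, the called member was Capza2 (ENSMUSG00000015733, chr6:17636234-17666972), an alpha subunit of capping protein. Its rate was 0.0688 and 0.0705 in wild type against 0.0161 and 0.0136 without Fmr1. The 2 values of each genotype lay close together, but they share 1 RNA level, so their closeness is no check of that level. The listed rate fell by 2.24 on the log2 scale (SE 0.322, limma adjusted p = 0.024), which is 4.72-fold lower. Over the solved level described below, the change was 0.24. Actr3, the Arp2/3 subunit Arp3, had 0.0819 and 0.0950 against 0.0116 and 0.0366 (-2.10, limma adjusted p = 0.080). Arpc5 had 0.0901 and 0.105 against 0.118 and 0.117, a change of 0.27 (limma adjusted p = 0.553). Of the nuclear actin-related genes, Actr8 (ENSMUSG00000015971, chr14:29978337-30006354; overlapping Il17rb on the opposite strand) fell, from 0.129 and 0.148 to 0.0510 and 0.0339. Its change was -1.73 (SE 0.376, limma adjusted p = 0.042), while Actr5 and Actr6 had changes of 0.76 and 0.95 and did not pass.

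The libraries of the same labelling time moved together, and a replicate block for labelling time added calls. Among the 35 members this fit called 14 rises and 5 falls, beside 38.2% and 9.76% of all genes. The members added were Actr10, Actr1b, Dctn6, Dync1li2, Kif22, Kif26a, Kifc2, Myo9b and Tubg2 on the higher side and Actr3, Kifc3 and Myo10 on the lower side. The authors' deposited table called 12 rises and 5 falls among 40 members, beside 29.2% and 7.09% of its 6182 genes. Without any test, 23 of 35 members had both knockout values above both wild-type values and 5 had both below, beside 52.6% and 16.5% of all genes. The count of 7 members rested on single libraries: it was 0 without the wild-type 60 min library, 0 without the knockout 20 min library, 1 (Myo10) without the knockout 60 min library and 8 without the wild-type 20 min library.

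**Figure D2:**
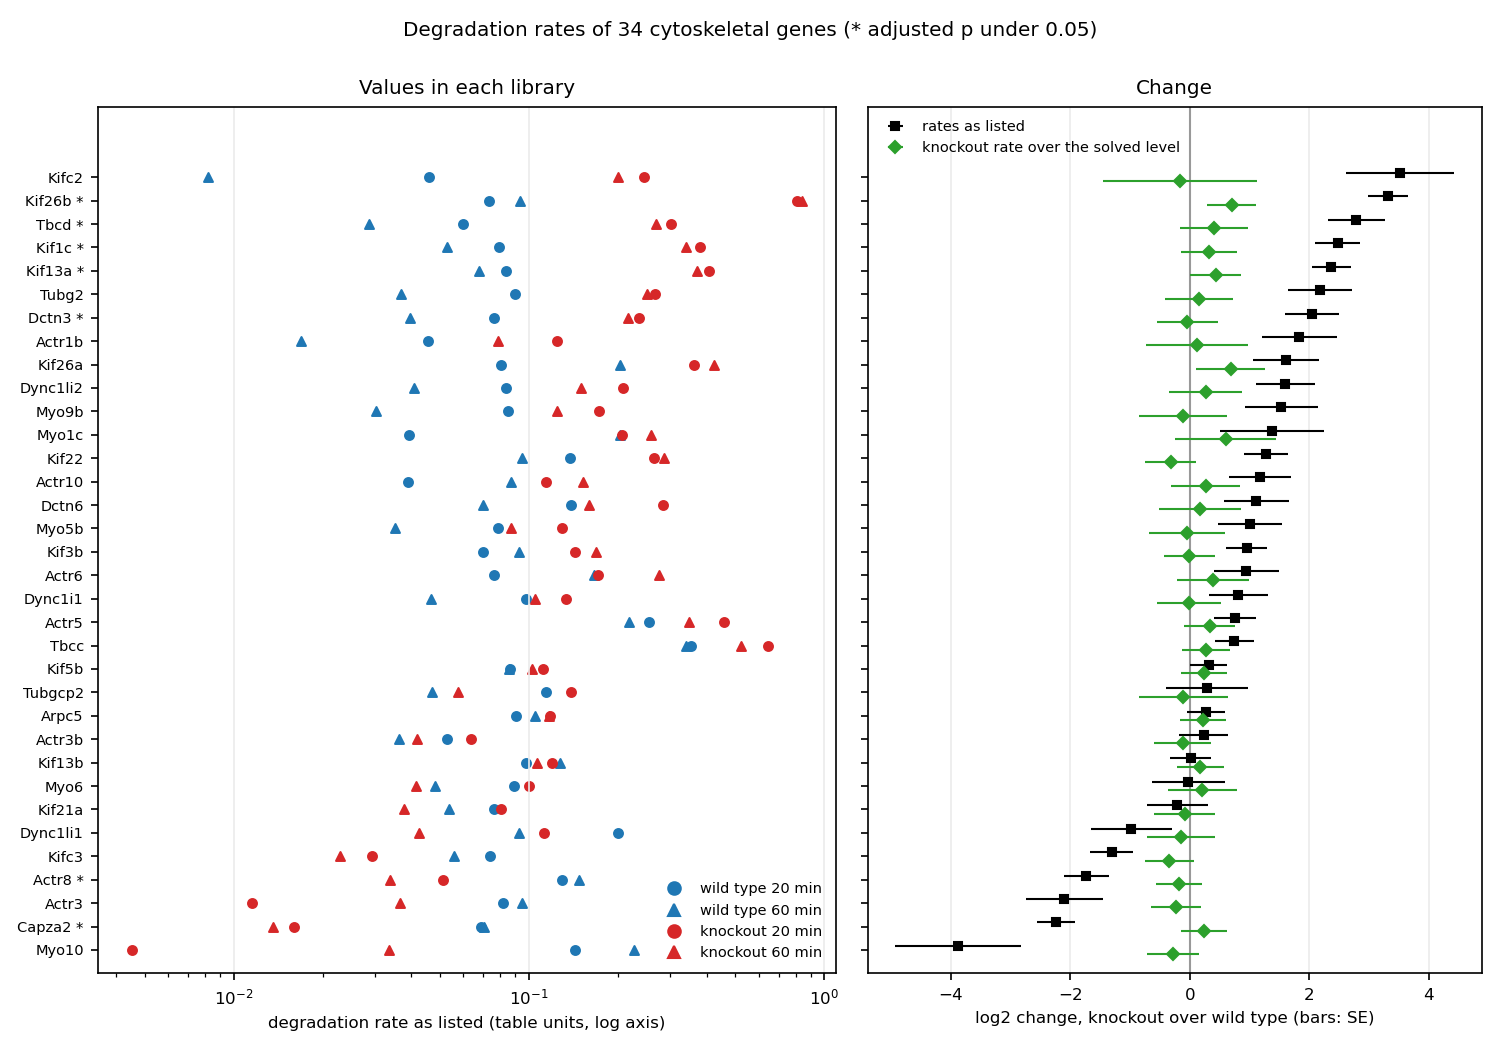
Degradation rates of 34 of the 35 members with values in all 4 libraries. Left, the rate in each library on a log axis in table units (blue wild type, red knockout, circles 20 min, triangles 60 min; asterisks mark limma adjusted p under 0.05). Right, the log2 change of knockout over wild type with its SE, for the rates as listed (black) and for the knockout synthesis rate over its solved level (green), where Kif26b goes from 3.32 to 0.70 and Capza2 from -2.24 to 0.24.

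The listed knockout degradation rates could not be read in the same way as those of wild type. In the knockout, synthesis over degradation was the same at both times, within 0.01, in only 2 of 36 members (median difference 0.31 on the log2 scale). The listed values instead obeyed another relation: the degradation rate equals synthesis, minus the difference between the knockout and wild-type total levels, divided by the knockout's mature level (its total level where no processing rate is listed). Processing rates obeyed the same relation with premature levels. Solved with that term, both knockout libraries gave the same total level within 0.001 in all 35 members with values, and in all 5736 genes. The level solved in this way is called the solved level below. A difference in level is thus subtracted from a synthesis rate that is itself small against the level. For Kif26b the synthesis rates hardly differed (0.667 and 0.855 in wild type, 0.644 and 0.821 without Fmr1), while the level was 9.20 in wild type against 5.46 without Fmr1 from both libraries.

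The levels differed far less than the listed rates. Over 42 members the median log2 difference of the level, knockout over wild type, was -0.05, and 25 were below 0 (59.5%); over 6421 genes it was -0.05 with 60.9% below 0. The lowest was Kif26b at -0.75 and the highest Tubgcp5 at 0.40. Capza2 had a level of 42.2 in wild type against 45.3 without Fmr1, a log2 difference of 0.10 beside its change of -2.24 in listed degradation. Across the 35 members the listed degradation change had a Spearman rho of -0.936 with the change in level, and the signs were opposite in 33, beside a rho of -0.926 over 5716 genes with opposite signs in 5306. This relation is built into the listed values by the term above and is no separate measurement. Marker levels differed by amounts of the same order. The neuronal marker Rbfox3 had 34.4 in wild type against 30.6 without Fmr1 (-0.17 on the log2 scale), and the other 3 neuronal markers in the table had no level in the knockout. Of the glial markers with levels in both genotypes, Olig2 had 48.2 against 52.5, Gja1 23.7 against 26.3, Mbp 1.75 against 2.16 and Aldh1l1 39.5 against 39.1, and the dividing-cell markers Aurkb and Cenpf had 2.99 against 2.50 and 1.43 against 1.51. Their part in the members' levels was not tested. The labels name 1 input library per genotype as the source of these levels, so the differences in level have no replicate check, and fewer cells of a type and less RNA per cell cannot be told apart.

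With the knockout degradation rate recomputed as synthesis over the solved level (mature where a processing rate is listed), 0 of 35 members and 0 of 5704 genes passed limma's test; 100 genes had p under 0.05 before adjustment. The block on labelling time again gave 0, with 529 genes at p under 0.05 before adjustment. The solved level is 1 number per genotype, so the spread in this fit is nearly that of the synthesis rates (for Kif26b an SE of 0.411, beside 0.408 for synthesis), and the recomputed changes had a rho of 0.813 with the synthesis changes across the 35 members. The fit therefore largely repeats the synthesis test given below. The members' changes ran from -0.34 (Kifc3) to 0.70 (Kif26b), with a median of 0.16. Kif26b (0.70, SE 0.411) and Kif26a (0.69, SE 0.577) were the highest, and each SE was large against the change. Capza2 changed sign from -2.24 to 0.24 and Dctn3 from 2.05 to -0.05, while Tbcd kept 0.40, Kif1c 0.33, Kif13a 0.43 and Actr8 -0.18. A p that misses the threshold does not show that the rates were alike.

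**Figure D3:**
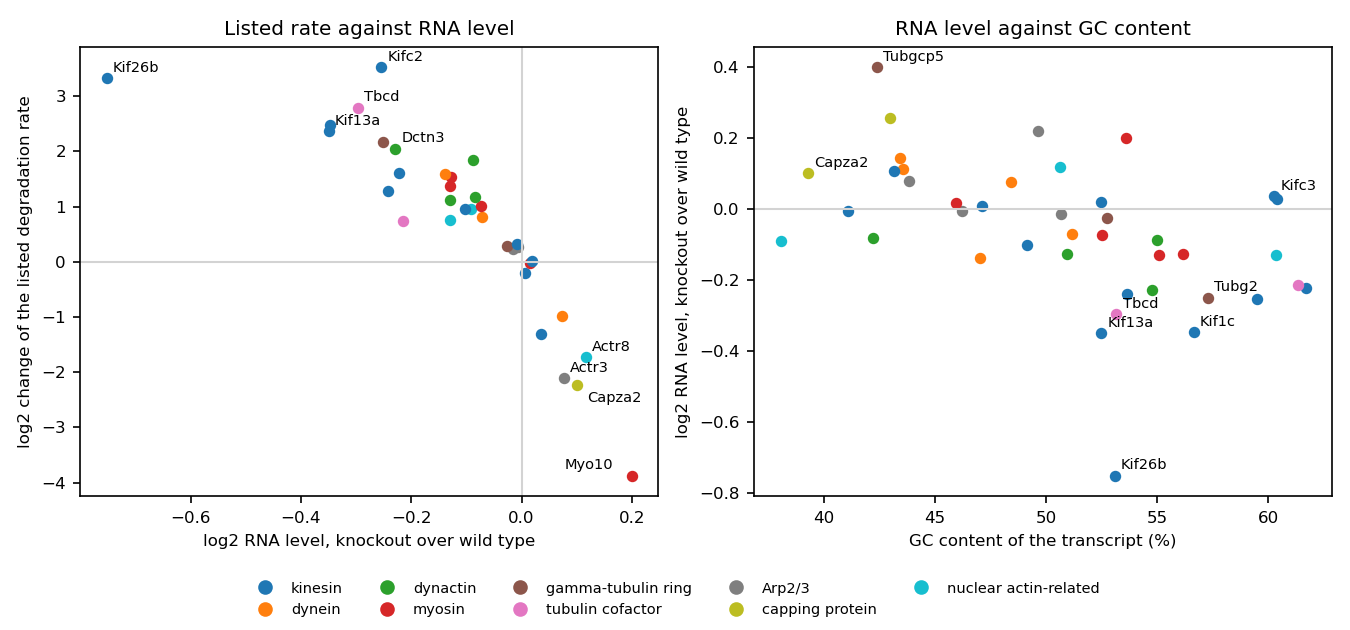
Total RNA levels of the members. Left, the change in listed degradation rate against the change in RNA level (both log2, knockout over wild type) for 34 of the 35 members, with opposite signs in 33. Right, the change in RNA level of 41 of the 42 members against the GC content of the transcript in percent, with Kif26b lowest at -0.75 and Tubgcp5 highest at 0.40; colours are the families.

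The change in level went with base composition among the members. Across 42 members, the log2 difference in level had a Spearman rho of -0.552 with the GC content of the transcript, beside -0.338 across 6206 genes. Of the 21 members with a GC content up to 51.1%, 13 had a higher level in the knockout, and of the 21 above it 4 did (Kif13b, Kifc3, Klc2 and Myo10). Over all genes at the same cut the shares were 51.0% and 25.6%. The order was not strict: Actr6, with the lowest GC of the 42 (38.1%), and Kif5b and Actr10 (41.1% and 42.2%) had log2 differences of -0.09, -0.01 and -0.08, and Kifc3 and Klc2 (60.3% and 60.4%) had 0.04 and 0.03. The listed degradation change had a rho of 0.455 with GC over 35 members, beside 0.311 over all genes. These points share their libraries and the part of base composition in the results was not tested.

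No member passed the threshold for synthesis. By limma's test 0 of 36 members and 0 of 5794 genes passed, with 0 members and 18 genes at p under 0.05 before adjustment, and the block gave 0 as well (266 genes at p under 0.05 before adjustment). The median change was 0.00, with 18 members above 0 and 18 below. Both knockout values lay above both wild-type values in 3 members (Arpc5, Capza2 and Kif5b) and below in 2 (Kif22 and Kifc3), beside 8.92% and 9.20% of all genes. For Arpc5 the rates were 5.13 and 5.97 in wild type against 6.43 and 6.37 without Fmr1. Capza2 had 2.89 and 2.96 against 3.74 and 3.65, a change of 0.34, and Kif5b 1.48 and 1.48 against 1.80 and 1.65. These differences were small beside those between labelling times in other members.

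Synthesis rates of most members differed between labelling times in the same direction in both genotypes. In wild type 24 of 36 members had a lower rate at 60 min than at 20 min, with a median log2 difference of -0.38, and 31 of 36 moved the same way in the knockout. Kifc2 is an example, with wild-type values of 2.61 (20 min) and 0.466 (60 min) against 2.43 and 0.281 without Fmr1. Dync1li1 had 7.82 and 3.63 in wild type against 6.70 and 3.84 without Fmr1. The dynein chains Dync1i1, Dync1i2, Dync1li1, Dync1li2, Dync2h1 and Dync2li1 were all lower at 60 min in wild type. Kif3b, a motor of kinesin-2, went the other way in both genotypes (1.59 and 2.09; 1.43 and 1.97). The difference between the times correlated between the genotypes across 36 members with a rho of 0.866, beside 0.735 across 5794 genes.

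Processing rates gave no member past the threshold in the same fit: 0 of 31 members and 0 of 5082 genes passed, with 2 members and 783 genes at p under 0.05 before adjustment. The median change was -0.24 over the members and -0.36 over all genes, but the members' median turned to 0.11 with each library centred on its median and to 0.13 with quantile normalization, and it ran from -0.52 to -0.0020 with single libraries left out. With labelling time as a block, 1 member rose and 5 fell, beside 6.26% and 19.3% of all genes. The block and centring together gave 2 rises (Actr5 and Kif22) and 0 falls, with 363 and 325 over all genes. The shift between the genotypes' medians, which centring removes, was -0.35. The following calls hold under the block only.

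Kif22, a chromosome-arm kinesin of dividing cells, was the member that rose. Its processing rate was 2.57 and 1.76 in wild type against 13.7 and 15.9 without Fmr1, a change of 2.80 (SE with the block 0.286, block adjusted p = 0.0095 by limma; 0.102 without it). With the rate taken over the solved premature level the change was 2.15 (adjusted p with the block 0.019). The solved level of premature Kif22 RNA was 0.116 in wild type against 0.0185 without Fmr1, the lowest ratio of the 40 members with values (-2.65 on the log2 scale). Its total level differed less, 2.28 and 1.93. Of the other dividing-cell markers, Aurkb had processing rates of 0.154 and 0.622 in wild type against 2.60 and 2.54 without Fmr1 (adjusted p with the block 0.019), Cenpf had 1.49 and 2.50 against 3.27 and 4.02, and Mki67 and Top2a had no knockout rates. The part of dividing cells in the Kif22 result was not tested.

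The 5 falls under the block came from 4 families, with 2 kinesins among them. Actr8 had 8.89 and 10.2 in wild type against 4.57 and 3.92 without Fmr1 (-1.17, block adjusted p = 0.032 by limma). Kif21a, a kinesin of axons, had 11.2 and 7.89 against 6.23 and 2.90 (-1.14, block adjusted p = 0.039 by limma). Kif3b had 16.4 and 21.6 against 7.49 and 10.5 (-1.09, block adjusted p = 0.032 by limma). In these 3 genes both knockout values lay below both wild-type values. Tubgcp2 (9.06 and 3.74 against 5.43 and 1.51) and Myo6 (7.28 and 3.92 against 4.17 and 1.71) fell by 1.02 and 1.00, with overlapping groups and block adjusted p of 0.047 and 0.044 by limma. Over the solved level with the block, Kif22 and Kif3b remained called, beside 3.61% of all genes higher and 11.9% lower.

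Without a test, 4 members had both processing rates higher in the knockout and 7 had both lower, beside 11.5% and 35.1% of all genes. The solved premature level was above wild type in 30 of 40 members, with a median of 0.35, beside 4327 of 6053 genes with a median of 0.30, so the members' share lay near that of all genes. Dctn3 was highest at 1.84, from 0.0794 to 0.284, from its 60 min library alone.

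**Figure D4:**
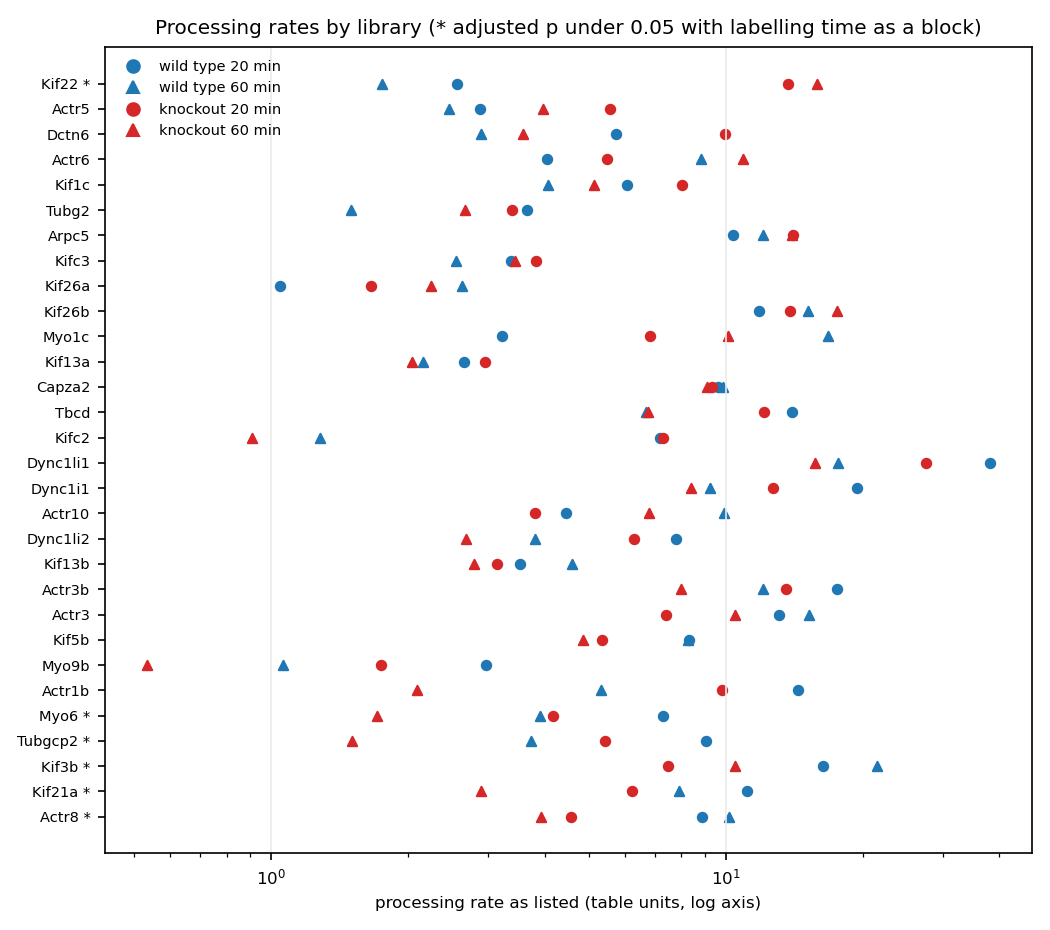
Processing rates of 30 of the 31 members with values in all 4 libraries, on a log axis in table units (blue wild type, red knockout, circles 20 min, triangles 60 min), ordered by the change. Asterisks mark members past the threshold of 0.05 (limma, adjusted) in the fit with the block; Kif22 stands at 13.7 and 15.9 in the knockout against 2.57 and 1.76.

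The partners of these genes were described from 4 lists chosen by function, and the counts below refer to listed degradation rates, with 20.5% rises and 2.57% falls over all genes. Of the actin assembly genes, 25 of 50 were tested, of which 5 rose (Abi1, Actn4, Coro2a, Tmod3 and Twf2) and 1 fell (Brk1), with a median of 0.79. Abi1 and Brk1 are subunits of the same WAVE complex, which switches on Arp2/3, and went opposite ways. Abi1 went from 0.0805 and 0.115 to 0.339 and 0.369, and Brk1 from 0.107 and 0.0750 to 0.0279 and 0.0212. Nckap1 and Wasf3, tested as well and of the same complex, had changes of 1.05 and 0.93 and did not pass. Of the motor adaptors and regulators, 15 of 38 were tested, of which 5 rose (Myh14, Myh9, Nde1, Rhot2 and Trak2) and 1 fell (Bicd1), with a median of 1.21. Bicd1, an adaptor of dynein, went from 0.183 and 0.225 to 0.0246 and 0.0112. Rhot2 and Trak2, which hold mitochondria on kinesin, both rose, by 3.78 and 1.48.

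Of the microtubule-associated genes, 16 of 41 were tested, of which 3 rose (Camsap3, Clip2 and Nav2) and 2 fell (Ckap5 and Katnal1), with a median of 0.04. Of the genes for tubulin folding, modification and autoregulation, 16 of 35 were tested, of which 4 rose (Agbl5, Pfdn5, Ttll5 and Vbp1) and 0 fell, with a median of 0.87. Pfdn5 and Vbp1 are subunits of prefoldin, which passes tubulin and actin to their folding chamber; Pfdn5 went from 0.0458 and 0.0334 to 0.484 and 0.460. In synthesis and processing, 0 genes of the 4 lists passed without the block. With labelling time as a block, 8 actin assembly genes had higher and 1 lower degradation rates, against 9 and 2 motor adaptors and regulators, 6 and 3 microtubule-associated genes and 5 and 1 genes of tubulin folding, beside 38.2% and 9.76% of all genes. In processing the block called Daam2, Rhot2 and Vbp1 higher and Agbl5, Camsap3, Map9, Nudc, Pfdn5, Twf2 and Vash1 lower, of 24 actin assembly, 15 microtubule-associated, 14 adaptor and 15 tubulin folding genes tested, beside 6.26% higher and 19.3% lower over all genes, so these counts are not read as a result about the lists. In synthesis the block called 0 genes. The same level term enters all these listed rates.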

How the data were processed

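The authors deposited 1 table with 3 rates per gene (synthesis, processing, degradation) in each of 4 labelled libraries, made with INSPEcT going by its name in the labels, and 3 tables that compare the genotypes. Per the file headers, the deposited comparison tables hold log2 changes, p-values with adjusted p-values, and score values (the moderated statistic and log odds, not used). Per the submitters' processing notes, cutadapt, Bowtie2, TopHat2, HISAT2 and limma were used, with the builds mm10, dm6 and sacCer3; roles and versions are not given in the sources used here. Per the labels' protocols, labelled fly RNA and unlabelled yeast RNA served as spike-ins (10% of the weight each). The time unit, and how the spike-ins entered the rates, are not given in the sources used here. Of the columns of per-sample values, 0 were left unused. The 10 samples form 6 groups; input replicate 2 is not named as a source of the tables.

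For each rate, log2 values without a pseudocount of genes with a rate above 0 in all 4 libraries were compared by limma 3.58.1 in R 4.3.3 (lmFit, eBayes without trend, two-sided, Benjamini-Hochberg over all genes, threshold 0.05). The fit was tested on simulated data with independent noise in each library and no level shared between libraries. That test therefore does not bear on errors of the shared level in the listed rates. Levels were solved from the rates in Python 3.11.15 as described beside the results. Alternatives were a labelling-time block, centring, quantile normalization, both of block and centring, a pseudocount at the 10th percentile (0.0431 for degradation), leaving out genes at or under the 25th percentile, a trend, a threshold of 0.01, the authors' tables, 2 ways of solving the knockout level, and leaving out each library. The labelling times pair the libraries per the labels, and the difference between times correlated across members between genotypes (rho 0.866 for synthesis, 0.848 for processing and 0.618 for degradation, beside 0.735, 0.735 and 0.652 across all genes). These 3 values are not independent. Both wild-type libraries share 1 level per gene, so their differences in processing and degradation largely repeat those in synthesis.

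The members and lists were chosen with earlier results of these data known. Named members were those of a list by role, those past the threshold for degradation with the same direction at both times, the 2 highest and 2 lowest per rate in wild type, and the 5 fastest made without knockout rates. Others are named where they fill out a family or a count and were chosen after their values were seen. Gene structure came from GENCODE M21 (57 of 57 members matched by symbol), and promoter sequences from RefSeq on GRCm38.p6. The values of 1 member are not reported here; it was kept in the fits and counts.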

Additional observations from a re-analysis of the deposited data

Results flagged for a closer look

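Some of the members named by the rule differed one way at 20 min and the other way at 60 min; the numbers are log2 changes of knockout over wild type at each labelling time, and the difference between the times was not tested. For synthesis, Dync1i1 had -0.32 at 20 min and 0.16 at 60 min, a difference of 0.49. Dync1li1 had -0.22 and 0.08, a difference of 0.30. Actr8 had 0.12 and -0.28, a difference of -0.39, and Kif1c 0.02 and -0.06, a difference of -0.087. Kif13a had 0.18 and -0.04, a difference of -0.22, and Tbcd -0.01 and 0.22, a difference of 0.23. Kif26a had 0.89 and -0.02, a difference of -0.91, and Tbcc 0.24 and -0.13, a difference of -0.37. Klc2, which had no knockout degradation rate at 60 min, had 0.68 and -0.45, a difference of -1.12. Myo10 had 0.11 and -0.27, a difference of -0.38. For processing, Kif13a had 0.15 and -0.08, a difference of -0.22, and Tbcd -0.20 and 0.02, a difference of 0.22. Kif26a had 0.67 and -0.23 in processing, a difference of -0.89, and Kifc2 0.02 and -0.50, a difference of -0.52. For degradation, Myo6 had 0.17 and -0.21, a difference of -0.38. With 1 library per genotype and time, these values have no replicate check.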

How the results depend on the processing

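For degradation, 1321 genes passed as listed. The number was 2741 with the replicate block, 92 with centring, 596 with quantile normalization, 2070 with both block and centring, 0 at a threshold of 0.01, 2 with the level solved from the 2 knockout libraries, 0 with the level difference (with and without the block, an alternative chosen after seeing the data) and 2245 in the authors' deposited table; without single libraries it ran from 1 to 1112. For members called, these were 19, 1, 4, 10, 0, 0, 0 and 17, with 11 under a pseudocount and 0 to 8 without single libraries. The members' median change of 0.95 was 0.092 with centring (with and without the block), 0.21 with quantile normalization, 0.68 with the pseudocount, 1.27 without low rates, 0.20 and 0.16 with the solved levels, 0.78 in the authors' table and 0.64 to 0.97 without single libraries. Capza2 reversed to 0.54 and 0.24, and Dctn3 to -0.17 and -0.0452, with the 2 solved levels, the latter value also with the block.

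For processing, 0 genes passed; the block gave 1300, block and centring 688, the solved level with the block 789, and single libraries left out 1 to 95. Members called were 0, 6, 2 and 2 under these. Their median of -0.24 was 0.11 with centring (with and without the block), 0.13 with quantile normalization and -0.52 to -0.0020 without single libraries. For synthesis, 3 to 16 genes passed without single libraries, and the members' median ran from -0.30 to 0.27. A library left alone was assumed to vary like the others. Depth is unknown, and 2 libraries a genotype limit what can be called; the causes of these differences were not tested.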
